A study of Mus musculus with 8 samples.

Results

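The genes described here encode proteins of the red cell membrane and its skeleton and proteins needed for the maturation of erythroid cells, with globins, haem enzymes and transcription factors left aside. They were taken from a list of 35 genes, chosen by function and with earlier results of these data known. Of these, 33 were measured by a probe set with a single gene name, among 18193 genes in all. Expression of Epb41 and Trim58 was not analysed here. Expression was measured on Affymetrix 430 2.0 arrays in LSK cells, the Lineage-low, Sca1-positive and cKit-high fraction of mouse bone marrow that holds haematopoietic stem and multipotent progenitor cells. All mice were C57BL/6, and 8 arrays were made, 4 of the wild type genotype and 4 of the genotype heterozygous for mutant Jak2V617F, a constitutively active form of the kinase that signals below the erythropoietin receptor. Strain, sorted population, extraction and amplification were shared by both groups, and the age, number of sorted cells and means of expressing the mutant allele were not given in the labels. The labels number the arrays of each genotype as replicates and do not state that each came from a separate mouse, so p-values measure the spread between these arrays, which may be technical in part. Values are log2 intensities as deposited, and every change is given as mutant minus wild type.

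A red cell keeps its shape through a lattice of spectrin and short actin filaments that is tied to the lipid membrane at anchor points. Ankyrin joins spectrin to band 3 (Slc4a1) and the Rh proteins, and protein 4.1, adducin and tropomodulin hold the actin junctions to glycophorin C and other membrane proteins. These components are made in large amounts in maturing erythroblasts, beyond the stage of the stem and progenitor cells that an LSK gate collects, while several, such as Add1, Add3 and Tmod3, are also made in many other cell types.

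Transcripts of the membrane transporters and blood group proteins lay higher in mutant cells on average, but no member passed the test. Of the 33 measured genes, 27 had a change above 0 and 6 below 0, with a median change of 0.30 beside 0.05 over all genes. Above 0 were 62.6% of all genes. With limma and Benjamini-Hochberg adjustment over all genes, 0 of 33 were called at an adjusted p under 0.05, a threshold that 0.165% of all genes passed. Without adjustment, limma gave p under 0.05 to 7 members higher (21.2%) and 0 lower, beside 11.9% and 5.23% of all genes. All 4 mutant arrays lay above all 4 wild type arrays for 4 members (12.1%), Slc4a1, Samd14, Fam210b and Icam4, and below for 0, beside 6.82% and 3.33% of all genes. A change of at least 0.5 was seen for 9 members, and for 2.32% of all genes. As the list was chosen with earlier results of these data known, these shares are descriptions and not a test of the list.

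**Figure D1:**
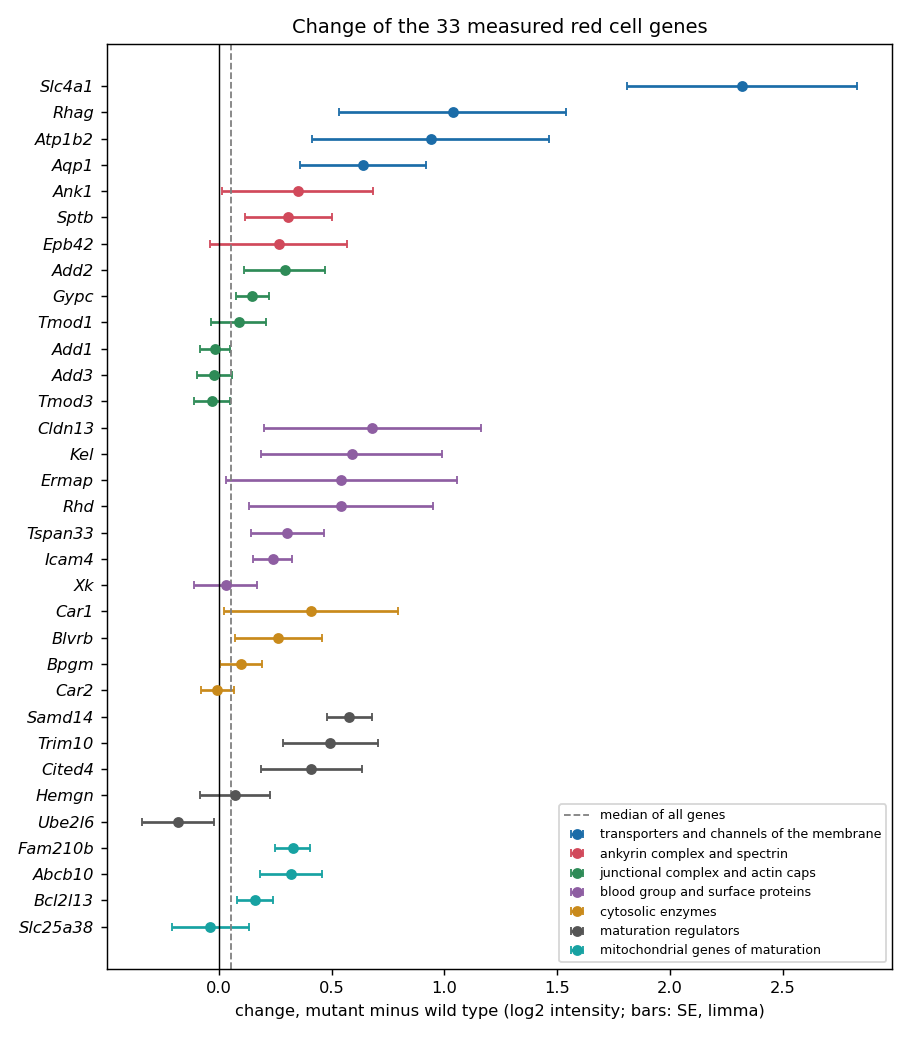
Change in log2 intensity (mutant minus wild type, horizontal axis) of the 33 measured genes, in colours by role, with bars of 1 SE from limma and a dashed line at the median of all genes. Slc4a1 stands at 2.32, and the adducin genes Add1 and Add3, Tmod3 and Car2 lie near 0.

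The sorted population and the level of background bear on these values. The receptor gene Kit read 12.52 to 12.82 and Cd34 13.86 to 14.06 over all arrays. Of 8 measured T and B cell markers 5 were near background in both genotypes, Cd3e among them (6.63 to 7.42), while Cd79b read 11.66 to 11.83, Vpreb1 9.17 to 10.28 and Cd4 8.04 to 9.04. Transcripts of mature neutrophils were also present, S100a9 reading 13.69 to 14.87. The array files gave no detection calls, so background was read from 18 genes of other organs, such as albumin, whose means had a median of 5.43 and a 90th percentile of 8.05. Of these 18 genes 15 (83.3%) had a change above 0, with a median change of 0.15, 3 higher at an unadjusted limma p under 0.05 and 2 higher without overlap, so the share of members above 0 (81.8%) was no greater than theirs. A gene with a mean at or under 8.05 is called near background here, which held in both genotypes for 9 members: Rhag, Ank1, Sptb, Epb42, Add2, Kel, Xk, Trim10 and Cited4. No fold is given for these, and probe sets differ in their own background. It held in wild type alone for Slc4a1, Atp1b2 and Cldn13, whose folds are lower bounds. In sorted cells measured in bulk, more cells of a type and more RNA per cell cannot be told apart.

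Among the membrane transporters, Slc4a1, which encodes the band 3 chloride and bicarbonate exchanger and spectrin anchor, differed most. It read 6.96, 7.16, 8.12 and 6.90 in wild type arrays 1 to 4 and 9.10, 10.85, 8.34 and 10.13 in mutant arrays 1 to 4. Every mutant array was above every wild type array, with mutant array 3 only just above wild type array 3. The change was 2.32 ± 0.51 (SE, n = 4 each; limma adjusted p = 0.105), and against the background level it was at least 2.94-fold. A further Slc4a1 probe set differed by 2.06, and the third, near background in both genotypes, differed by 0.03.

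Rhag, the Rh-associated glycoprotein that carries ammonia or carbon dioxide and brings Rh proteins to the membrane, read 5.02, 5.52, 6.47 and 4.62 in wild type and 5.30, 7.03, 7.36 and 6.08 in mutant arrays. Mutant arrays 2 and 3 lay above all wild type arrays, and mutant arrays 1 and 4 within their range. The difference was 1.04 ± 0.50 (SE, n = 4 each; limma adjusted p = 0.327), near background in both genotypes. Atp1b2, a beta subunit of the sodium pump, read 7.29, 8.09, 8.07 and 6.65 in wild type and 7.05, 8.94, 9.57 and 8.30 in mutant arrays, a difference of 0.94 ± 0.52 (SE; limma adjusted p = 0.381). Its other probe set, near background, went from a mean of 6.62 to 7.62. Aqp1, the water channel of red cells, read 10.44, 10.61, 10.87 and 10.22 in wild type and 10.36, 11.51, 11.75 and 11.07 in mutant arrays, a difference of 0.64 ± 0.28 (SE; limma adjusted p = 0.286). For Aqp1 and Atp1b2 alike, mutant arrays 2, 3 and 4 were above all wild type arrays and mutant array 1 was within the wild type range.

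The anchor proteins below band 3 differed less. Ank1 (ankyrin, 0.35 ± 0.34), Sptb (beta spectrin, 0.31 ± 0.19) and Epb42 (protein 4.2, which steadies the link of band 3 to ankyrin, 0.27 ± 0.30; SE, n = 4 each) all had a change above 0 and groups that overlapped, and all were near background in both genotypes. Their limma adjusted p-values lay between 0.420 and 0.661. Mutant array 2 was highest for Sptb at 6.93 and for Epb42 at 7.22, and mutant array 3 for Ank1 at 8.20.

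Genes of the actin junctions had differences between -0.03 and 0.29. Gypc, glycophorin C, had 0.15 ± 0.075, Tmod1 and Tmod3, which cap actin filaments, had 0.09 ± 0.12 and -0.03 ± 0.080, and the adducin genes Add1 and Add3 had -0.02 ± 0.066 and -0.02 ± 0.078 (SE, n = 4 each). Add2, the adducin made mainly in blood and brain, had 0.29 ± 0.18. Its 5 probe sets, all near background, differed by 0.20 to 0.37. The adjusted p-values of these 6 genes in limma lay between 0.340 and 0.910. Add1 read 12.96 to 12.98 in wild type and 12.86 to 13.03 in mutant arrays, so its wild type spread (SD 0.012) was narrower than that of the mutant arrays (SD 0.082).

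The blood group and surface proteins had 7 of 7 changes above 0, from 0.03 for Xk to 0.68 for Cldn13. Above 0 were 62.6% of all genes and 83.3% of the genes of other organs. Xk was near background, and its other probe set differed by -0.53. Erythroid genes are known to be read through GATA and CACCC motifs, which Gata1 and Klf1 bind, so the promoter letters of 4 of these genes are shown with those motifs in capitals. RefSeq gave promoter windows, 250 bases before to 50 after the start, for 26 of the 35 genes (31 windows, build GRCm38.p6). Cldn13, Slc4a1, Atp1b2, Ank1, Gypc, Tmod3, Car1, Car2 and Samd14 had no entry. The stretches below are 100 bases that end where the annotated gene begins, which is the start of the window's transcript for Rhd and Icam4 but lies 9 bases before it for Kel and 18 before it for Ermap. They run 5′ to 3′ on the strand of the gene, and capitals mark the GATA strings AGATAA and, with another first base, TGATAA, and the Klf1-type string CACCC, each on either strand, so that the reverse complement is marked too.
Rhd, chr4:134864436-134864535, + strand: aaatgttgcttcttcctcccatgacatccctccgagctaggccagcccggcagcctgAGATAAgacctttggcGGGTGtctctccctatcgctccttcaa
Ermap, chr4:119190014-119190113, - strand: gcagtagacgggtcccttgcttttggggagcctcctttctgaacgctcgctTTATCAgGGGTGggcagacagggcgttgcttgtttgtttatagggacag
Kel, chr6:41704335-41704434, - strand: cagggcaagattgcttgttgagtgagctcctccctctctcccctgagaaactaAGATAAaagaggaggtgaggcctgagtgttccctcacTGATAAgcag
Icam4, chr9:21029332-21029431, + strand: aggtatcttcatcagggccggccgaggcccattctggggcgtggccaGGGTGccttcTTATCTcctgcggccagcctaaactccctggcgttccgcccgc

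These stretches were picked after the values and matches had been seen, to show GATA letters close to the start. The match began 43 bases before the start of the transcript in Rhd and Icam4, 67 before it in Ermap and 56 and 19 before it in Kel. Kel also holds CACCC, 5 bases before the start of the transcript, beyond the letters printed. Over whole windows, AGATAA was found in 6 of 31 member windows (19.4%) and 11.2% of the 32851 windows of all genes, TGATAA in 5 (16.1%) and 9.05%, and CACCC in 22 (71.0%) and 57.5%. CAGATG, an E-box letter string that Tal1 complexes can bind, was found in 3 (9.68%) and 17.2%. The 95% intervals (Wilson) of the member shares were 9.19% to 36.3% for AGATAA and 7.09% to 32.6% for TGATAA. They were 53.4% to 83.9% for CACCC and 3.35% to 24.9% for CAGATG. Each interval held the share of all windows. AGATAA and TGATAA share the letters GATAA, and several windows belong to the same gene. Tspan33 held none of the 4 strings in the 250 bases before its start. A match is a description of letters and was not tested for binding.

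Rhd, the Rh blood group antigen, read 8.43, 9.13, 9.16 and 8.22 in wild type and 8.07, 9.98, 9.82 and 9.23 in mutant arrays, a difference of 0.54 ± 0.41 (SE, n = 4 each; limma adjusted p = 0.501). Ermap, an immunoglobulin-like protein that carries the Scianna blood group, read 9.57, 10.54, 10.45 and 9.73 in wild type and 8.97, 11.14, 11.59 and 10.76 in mutant arrays, a difference of 0.54 ± 0.51 (SE; limma adjusted p = 0.589). In both genes mutant array 1 was the lowest of all 8 arrays, while the 3 other mutant arrays were above every wild type array.

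Kel, the endopeptidase that carries the Kell blood group, read 6.93, 7.58, 7.63 and 6.37 in wild type and 6.63, 8.21, 8.34 and 7.68 in mutant arrays, a difference of 0.59 ± 0.40 (SE, n = 4 each; limma adjusted p = 0.462) near background in both genotypes. Cldn13, a claudin of mouse erythroid cells, read 7.74, 8.42, 8.57 and 7.12 in wild type and 7.29, 9.39, 9.28 and 8.61 in mutant arrays. Its difference was 0.68 ± 0.48 (SE; limma adjusted p = 0.475). Mutant array 1 lay among the lower wild type arrays for both, and the other mutant arrays above all of them. Tspan33, a tetraspanin of erythroid progenitors, differed by 0.30 ± 0.16 (SE; limma adjusted p = 0.355), and its 3 other probe sets by 0.34, 0.41 and 0.32.

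Icam4, the Landsteiner-Wiener adhesion protein that binds integrins of macrophages, took another form. It read 9.80, 9.71, 9.69 and 9.71 in wild type and 10.14, 9.88, 10.03 and 9.81 in mutant arrays. The groups did not overlap, by a margin of hundredths between mutant array 4 and wild type array 1, and here mutant array 1 was the highest. The change was 0.24 ± 0.085 (SE, n = 4 each; limma adjusted p = 0.226). Xk, the partner of Kel in the membrane, differed by 0.03 ± 0.14 (SE). Its other probe set differed by -0.53, with all mutant arrays below all wild type arrays. Both probe sets were near background in both genotypes.

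**Figure D2:**
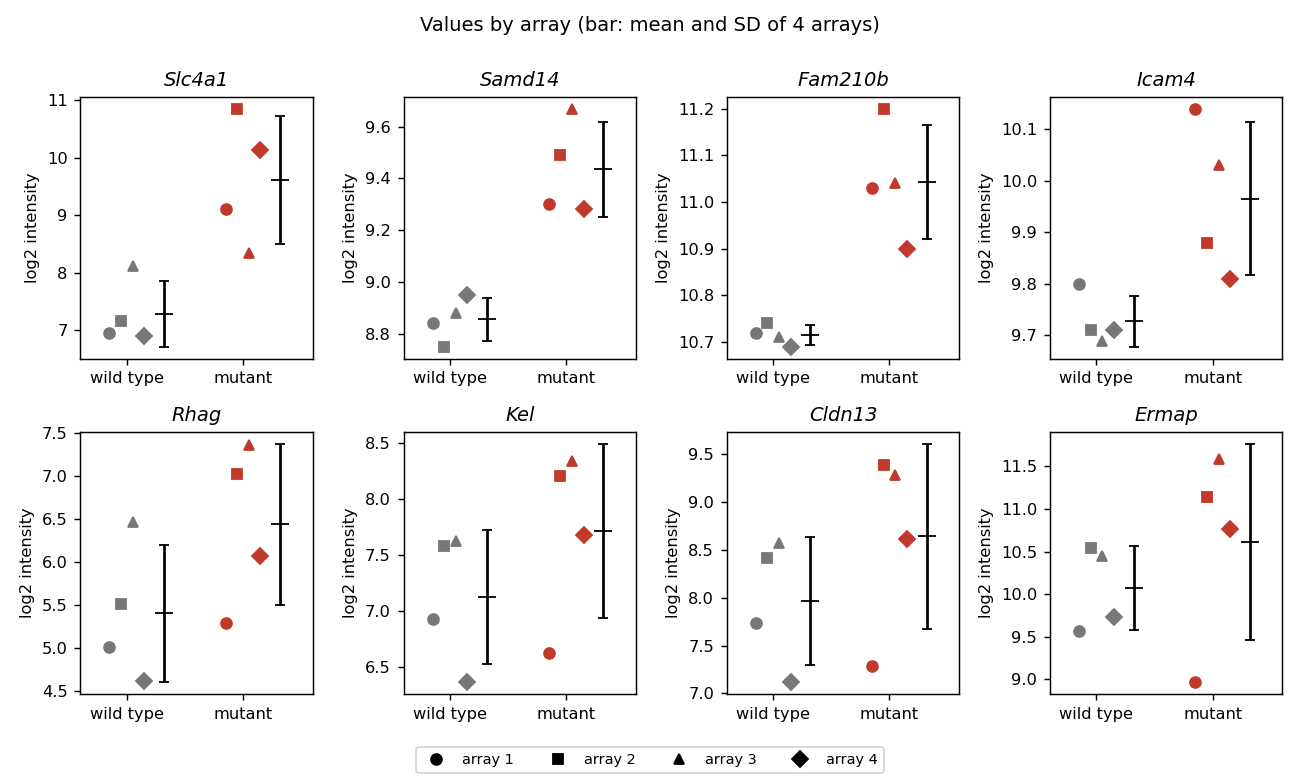
Log2 intensity in each array of 8 genes, with wild type in grey and mutant in red, a symbol for each array number and a bar for the mean and SD of 4 arrays. In the upper row (Slc4a1, Samd14, Fam210b, Icam4) the groups do not overlap, and in the lower row (Rhag, Kel, Cldn13, Ermap) mutant array 1 is the lowest mutant array and lies within or below the wild type range.

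Of the cytosolic enzymes, Car1, the carbonic anhydrase that marks early erythroid commitment, read 12.03, 12.47, 13.16 and 11.98 in wild type and 11.69, 13.25, 13.28 and 13.07 in mutant arrays (0.41 ± 0.39, SE, n = 4 each; limma adjusted p = 0.590). Mutant array 1 was the lowest of all 8 arrays. Blvrb, biliverdin reductase B, differed by 0.26 ± 0.19 and Bpgm, which makes the bisphosphoglycerate that tunes oxygen release, by 0.10 ± 0.094. Car2, a carbonic anhydrase with high activity, was level between the genotypes at -0.0075 ± 0.073 (SE).

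Of the maturation regulators, Samd14, a protein that promotes Kit signalling in erythroid precursors, had the smallest p of all members. It read 8.84, 8.75, 8.88 and 8.95 in wild type and 9.30, 9.49, 9.67 and 9.28 in mutant arrays, so the groups were apart by more than the range within wild type. The change was 0.58 ± 0.099 (SE, n = 4 each), a fold of 1.49, with a limma adjusted p of 0.0652 (unadjusted p = 0.00024). Over the alternatives its change ran from 0.50 to 0.63 and its limma adjusted p from 0.0514 to 0.168. Samd14 has 1 probe set here.

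Trim10, a ring finger protein needed for terminal erythroid differentiation, read 6.11, 6.31, 6.05 and 5.99 in wild type and 6.34, 7.29, 6.23 and 6.58 in mutant arrays, near background in both (0.49 ± 0.21, SE; limma adjusted p = 0.279). Mutant array 3 alone lay within the wild type range. Cited4, a transcriptional coregulator, differed by 0.41 ± 0.22 (SE) near background, and Hemgn, a nuclear protein of haematopoietic progenitors, by 0.07 ± 0.15. Ube2l6, an E2 enzyme for Isg15 and ubiquitin, had the largest change below 0 (-0.18 ± 0.16, SE; limma adjusted p = 0.562). Other measured genes of the Isg15 system, Uba7 (0.15), Usp18 (0.52) and Herc6 (0.05), lay above 0, with 0 of 3 called by limma. Of these, 1, Usp18, had an unadjusted limma p under 0.05.

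Among mitochondrial genes, Fam210b, which supports iron import and haem synthesis in erythroid mitochondria, read 10.72, 10.74, 10.71 and 10.69 in wild type and 11.03, 11.20, 11.04 and 10.90 in mutant arrays. The wild type arrays were tightly grouped (SD 0.019) and lay below all mutant arrays. The change was 0.33 ± 0.076 (SE, n = 4 each; limma adjusted p = 0.115). Another Fam210b probe set differed by 0.50, also without overlap, and the third by -0.07. Abcb10, an inner membrane transporter of erythroid mitochondria, read 11.97, 11.52, 12.05 and 11.44 in wild type and 12.07, 12.04, 12.04 and 12.10 in mutant arrays, a difference of 0.32 ± 0.14 (SE; limma adjusted p = 0.283). Its mutant arrays lay within hundredths of each other, and wild type arrays 2 and 4 were low. The mitophagy receptor gene Bcl2l13 differed by 0.16 ± 0.080 and Slc25a38, the glycine carrier of haem synthesis, by -0.04 ± 0.17 (SE). The other Bcl2l13 probe set, nearly as bright, differed by -0.10, so the direction for this gene depended on the probe set.

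Related genes with an erythroid and a broader form were compared within arrays. The first gene of each of 5 pairs had the higher change, by 0.42 for Car1 over Car2, 0.31 for Add2 over both Add1 and Add3, 0.12 for Tmod1 over Tmod3, and 0.49 for Rhag over Rhd, where both are erythroid. No pair passed an exact two-sided permutation test over the 8 arrays. The smallest p was 0.114, for Rhag and Rhd, and the p-values adjusted over the 5 pairs lay between 0.333 and 0.429. The smallest p that the design allows was 0.0286. At that value a pair alone could not have passed after adjustment over the 5 pairs, so the test does not show equal changes.

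Many members ranked the arrays alike. Mutant array 1 was the lowest mutant array for 17 of 33 members (51.5%), beside 24.0% of all genes, and mutant arrays 2 and 3 were the highest for 13 (39.4%) and 14 (42.4%), beside 20.7% and 29.4%. Mutant array 1 was below all wild type arrays for 8 members (24.2%, beside 17.5% of all genes), within their range for 18 and above them for 7 (21.2%, beside 31.4%). The exact order of mutant arrays 3, 2, 4 and 1 from high to low held for 9 members (Aqp1, Atp1b2, Rhag, Ank1, Gypc, Ermap, Kel, Car1 and Cited4) and 6.16% of all genes. The wild type arrays had a shared order too, with array 3 highest, then 2, 1 and 4, for 11 members (Slc4a1, Aqp1, Rhag, Ank1, Epb42, Rhd, Kel, Cldn13, Car1, Car2 and Blvrb) and 3.11% of all genes. Array 4 was the lowest wild type array for 19 members (57.6%), beside 20.9% of all genes. These orders were noticed in the data and were not tested.

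Without mutant array 1, all remaining mutant arrays lay above all wild type arrays for 15 of 33 members (45.5%), the 4 named above among them, beside 10.1% of all genes on the same 7 arrays. Without adjustment, limma gave p under 0.05 to 17 members higher and 0 lower, beside 10.9% and 4.41%, and the median change was 0.46. Changes were 1.13 for Cldn13, 1.09 for Ermap, 1.42 for Rhag and 0.95 for Kel. On those 7 arrays 0 members were called, beside 0.104% of all genes, the lowest limma adjusted p being 0.079 for Samd14. Since that array was the lowest in many members, leaving it out raises these counts, and the labels give no reason to set it aside. The unadjusted count of members higher was 4 without wild type array 4, mutant array 3 or mutant array 4, each in turn, beside 11.3%, 11.1% and 8.53% of all genes.

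**Figure D3:**
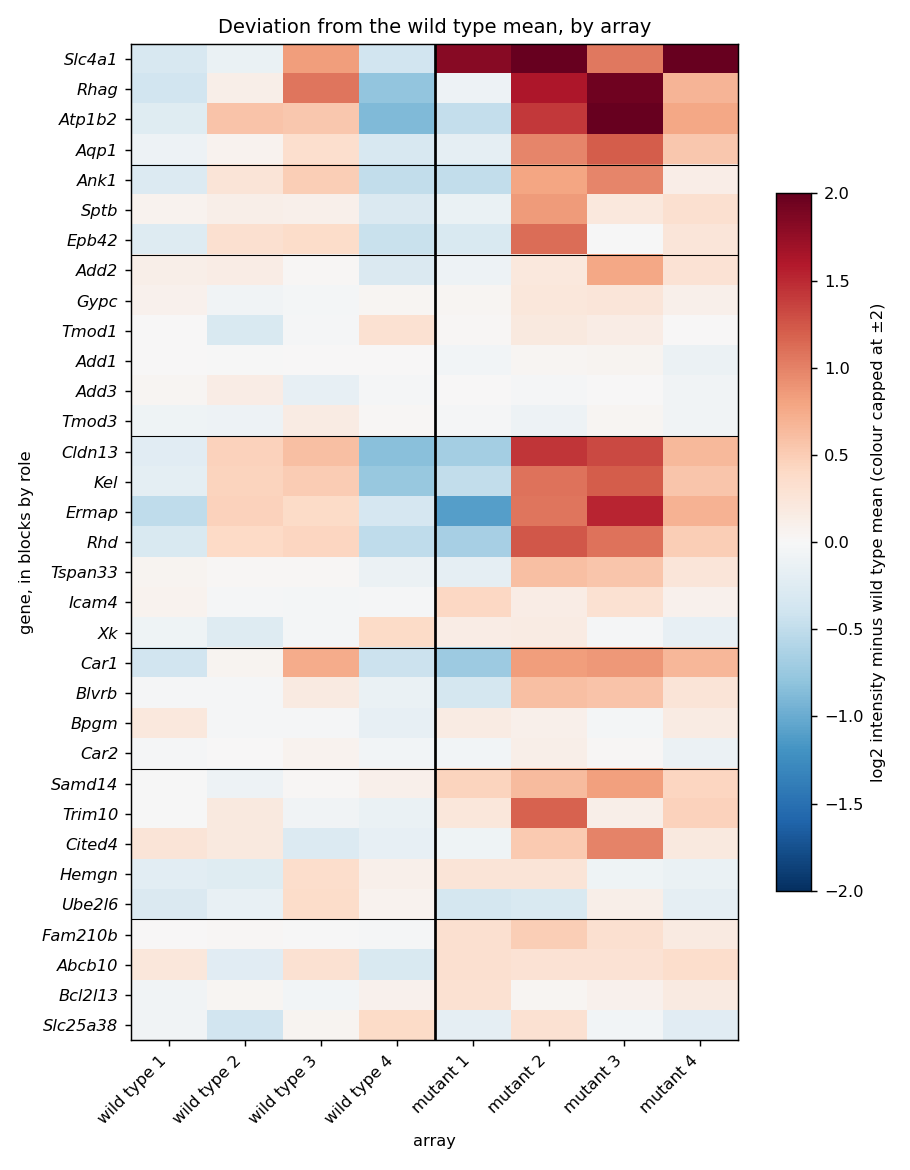
Colour map of log2 intensity minus the wild type mean for 33 genes (rows, in blocks by role) and 8 arrays (columns, wild type to the left of the line), with colour capped at 2 in either direction. The column of mutant array 1 is pale or blue for most surface proteins and red for Slc4a1, and mutant arrays 2 and 3 are red for both.

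Slc4a1 and Trim10 followed a different order, with mutant arrays 2, 4, 1 and 3 from high to low. The haem enzyme gene Alas2 had the same order (6.89, 8.02, 5.56 and 7.75 in mutant arrays 1 to 4, and 5.34 to 5.86 in wild type, near background in both genotypes), as did the beta globin gene Hbb-b2 (11.12, 11.76, 10.31 and 11.55, and 8.97 to 10.34 in wild type). The alpha globin gene Hba-a2 did not, reading 13.19 to 13.25 in mutant and 13.08 to 13.35 in wild type arrays. The neutrophil granule gene Ltf was likewise lowest in mutant array 3 (11.90, 11.87, 10.06 and 12.08, and 9.14 to 10.58 in wild type). So among mutant arrays were S100a8, S100a9, Camp and Ngp. The granulocyte markers Elane (11.73, 12.49, 13.17 and 12.56), Mpo and Itgam were instead highest in mutant array 3. Of 8 measured granulocyte markers 6 had a change above 0, with a summed log2 intensity of 90.71 to 97.37 in wild type and 94.65 to 99.77 in mutant arrays, and 1 was near background in both genotypes. The part of such cells in the Slc4a1 values was not tested.

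Erythroid factor and marker genes also lay higher. Of 13 measured, 11 had a change above 0 (median 0.50), 6 had an unadjusted limma p under 0.05 and 0 were called. Their summed log2 intensity did not overlap, at 117.50 to 124.07 in wild type and 125.12 to 131.79 in mutant arrays. The largest changes in it were those of Hbb-b2 (1.67) and Alas2 (1.52). For the members the same sum overlapped, at 308.88 to 322.51 in wild type and 313.02 to 336.96 in mutant arrays. The factor gene Klf1 (10.04, 10.25, 10.47 and 9.50 in wild type and 9.78, 10.94, 11.30 and 10.79 in mutant arrays) had the mutant order of Rhag and Kel, with a difference of 0.64. Other factor genes did not have this order. Gata1 (0.50) read 10.67, 10.98, 11.40 and 10.63 in mutant arrays, and Gfi1b (-0.28) and Nfe2 (-0.05) had changes below 0. Macrophage markers, which in marrow include those of the nurse cells of erythroblasts, had 13 of 13 changes above 0 (median 0.53), with 6 at an unadjusted limma p under 0.05, 4 apart without overlap, 0 called by limma and 7 near background in both genotypes. Their summed log2 intensity was 94.46 to 104.12 in wild type and 101.79 to 111.64 in mutant arrays, lowest in wild type array 4 and highest in mutant array 3. Of the megakaryocyte and platelet markers 9 of 9 measured had a change above 0 (median 0.39) and 4 an unadjusted limma p under 0.05. Of the mast cell and basophil markers 5 of 5 were above 0 (median 0.44) and 3 had such a p. T and B cell markers had 4 above and 4 below, with such a p for 1 in each direction, and 0 were called in any of these lists by limma. The part of these cell types in the results for the red cell genes was not tested. By array, the mean deviation from wild type was -0.07, 0.66, 0.57 and 0.32 for the members and 0.11, 0.53, 0.86 and 0.37 for macrophage markers in mutant arrays 1 to 4. Xist read 13.21 to 13.46 in wild type arrays 1 and 2 and mutant array 3 and 5.54 to 6.54 in the rest, so sexes were mixed in both groups. With Xist as a covariate the count of members at an unadjusted limma p under 0.05 was 7, with 0 called, and Add2 and Cited4 stood in place of Abcb10 and Trim10. Over all genes 63 were called in that fit, and 30 without the covariate. The share of all genes at an unadjusted p under 0.05 was not computed for it, so the count of 7 cannot be set beside one.

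**Figure D4:**
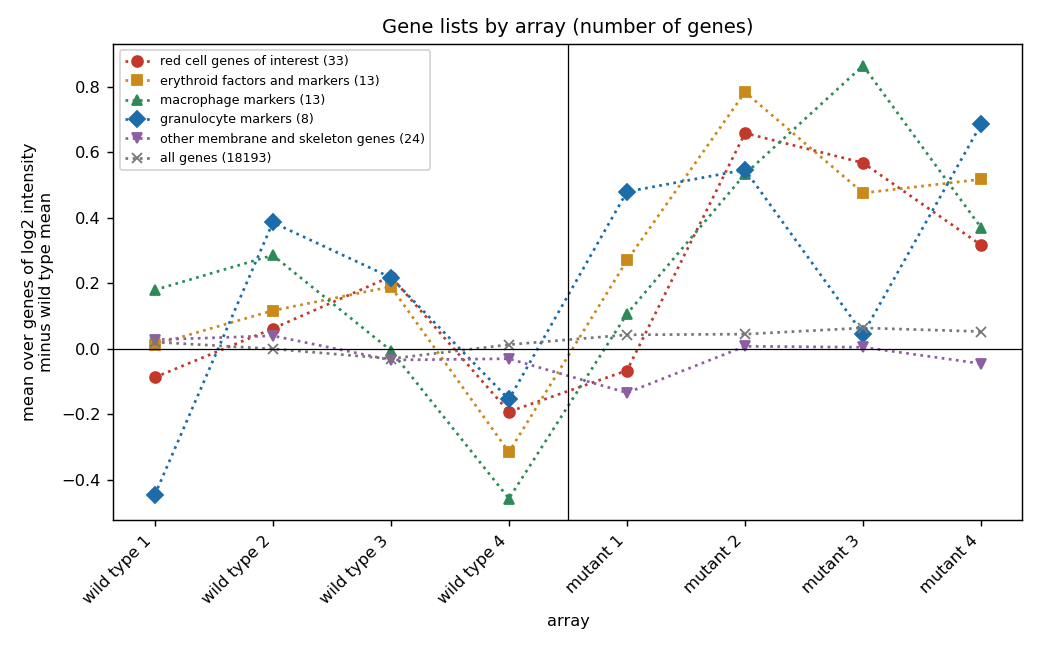
Mean over the genes of a list of log2 intensity minus the wild type mean (vertical axis), for each of 8 arrays, with the number of genes in brackets. The red cell genes lie at -0.07 in mutant array 1 and at 0.66 in mutant array 2, and the line of other membrane and skeleton genes stays between -0.14 and 0.04.

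Other red cell genes were split in direction. Of 24 measured genes in a further list of membrane and skeleton genes, 12 lay above 0 and 12 below (median -0.0069), with 0 called by limma, an unadjusted p under 0.05 for 1 higher and 3 lower, and no overlap for 1 higher and 4 lower. The higher gene was Dmtn, the actin bundling protein dematin (0.29 ± 0.084, SE; limma adjusted p = 0.178), near background. The lower genes were Bcam, the Lutheran antigen (-0.48 ± 0.094; adjusted p = 0.0849), also near background, Atp1b1, a further sodium pump subunit (-0.68 ± 0.15; adjusted p = 0.101), Atp2b4, a calcium pump (-0.53 ± 0.12; adjusted p = 0.117), and the glucose transporter gene Slc2a1 (-0.15), named after its values were seen. Atp1b1 read 10.70, 10.59, 11.01 and 10.87 in wild type and 10.04, 10.44, 9.78 and 10.17 in mutant arrays, in the opposite direction to Atp1b2, a contrast that was not tested. Atp1b1 differed by 0.14 with probe sets named _s_at, _x_at or _a_at left out. The mechanosensitive channel gene Piezo1 (0.18) and the urea transporter gene Slc14a1 (0.28) had groups that overlapped.

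Of 15 measured genes in a further list of maturation genes, 10 lay above 0 and 5 below (median 0.03), with 0 called by limma and 0 at an unadjusted p under 0.05. The smallest p-values were those of Isg20 (0.27), Glrx5, a glutaredoxin of iron-sulphur cluster assembly (0.10), Tent5c (0.28), Fbxo7 (-0.30), Ranbp10 (0.10) and Xpo7, an exportin used in nuclear condensation (-0.06). Only Xpo7 among these 15 had groups that did not overlap, with mutant arrays lower.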

How the data were processed

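RNA of sorted LSK cells was linearly amplified (NuGEN Ovation), labelled with biotin and hybridised, per the labels' protocols. The authors deposited log2 intensities of 45101 probe sets, and per the submitters' processing notes RMA, affy and R 2.11.0 were used. That the values are log2 was inferred from their range. The chip definition was not given in the sources used here. Scanner files were not used, so background, slide and scan date could not be varied. A shift shared by most transcripts would be hidden by the quantile step of RMA.

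Control probe sets (64) were left out, 34945 probe sets had 1 gene symbol, 932 several and 9160 none, and each of 18193 genes took its probe set with the highest mean. Entrez identifiers matched RefSeq for 34741 probe sets, with 0 symbols changed. Changes were tested with limma 3.58.1 (lmFit, eBayes) in R 4.3.3, two-sided, without covariates, after tests on simulated data. Members and lists were chosen with earlier results of these data known. All members are named, those with an unadjusted p under 0.05, groups apart or a change of at least 0.5 with every value, and up to 6 genes of each further red cell list by smallest p. Alternatives were the replicate block, centring, filters, probe set choices, a trended robust prior, array weights, an Xist covariate, each array left out and a threshold of 0.1.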

Additional observations from a re-analysis of the deposited data

Results flagged for a closer look

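In 5 of the 66 groups of 4 arrays checked (33 genes in 2 genotypes), the lowest or highest array was separated from the others by a gap beyond Dixon's critical value (95%), which chance alone passes in about 1 group in 20. Car1 read 11.69 in mutant array 1 and 13.07 to 13.28 in the other mutant arrays. Sptb read 5.80 in wild type array 4 (6.15 to 6.21 in the others), and Tspan33 read 10.38 there (10.52 to 10.55). Icam4 read 9.80 in wild type array 1 (9.69 to 9.71 in the others). Add1 read 12.96 in wild type array 2, with the others at 12.98, a gap of hundredths.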

How the results depend on the processing

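Under the 17 alternative fits 0 members were called by limma, and the median change stayed above 0. At an adjusted threshold of 0.1, 1 member, Samd14, was called. With each array left out in turn, members higher without overlap numbered 4 to 15. Members higher at an unadjusted limma p under 0.05 numbered 4 to 17, the high end of both without mutant array 1. On those same 7 arrays the shares of all genes were 10.1% without overlap and 10.9% at that p. The share without overlap was 6.82% on all 8 arrays. Not every array left out had its share of all genes computed, so the ranges as a whole have no such comparison. Members lower numbered 1 (Xk) without overlap and 1 (Xk) at an unadjusted p without probe sets named _s_at, _x_at or _a_at, and 1 (Xk) at an unadjusted p with probe sets averaged.

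Small changes turned sign. With median centring, which shifted the median of all genes from 0.05 to 0.10, Add1 was 0.027, Add3 0.024, Tmod3 0.012, Car2 0.037 and Slc25a38 0.0070. With probe sets averaged, Add1 was 0.065, Add3 0.11, Tmod3 0.0032 and Xk -0.25. Without the named probe sets Xk was -0.53, Atp1b1 0.14 and Xpo7 0.013. With the Xist covariate Add3 was 0.0047, Xk -0.021 and Hemgn -0.0041, and Atp1b1 was called (-0.76, limma adjusted p = 0.0348), the 1 call among the further red cell genes. With each array left out, changes ran from -0.020 to 0.46 for Epb42, -0.041 to 0.016 for Add1, -0.075 to 0.027 for Add3, -0.014 to 0.19 for Tmod1, -0.066 to 0.024 for Tmod3, -0.057 to 0.16 for Xk, -0.048 to 0.027 for Car2, -0.010 to 0.19 for Hemgn and -0.16 to 0.094 for Slc25a38. The cause was not tested.

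In the 250 bases before the start alone, AGATAA was in 16.1% of member windows and 9.99% of all windows, TGATAA in 16.1% and 7.94%, CACCC in 67.7% and 52.0%, and CAGATG in 6.45% and 14.4%. At the median of the genes of other organs, chosen after seeing the data, 0 members were near background in both genotypes.

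Correlations of deviations between same-numbered arrays lay between -0.22 and 0.10. Only the arrays numbered 4 were each the best match of the other. Whether the values of the members pair by array number was not tested. With the replicate block 8 members higher had an unadjusted limma p under 0.05 and 0 were called, the lowest adjusted p being 0.168. The block lowered the SE of some members, such as Rhag (0.50 to 0.22), and raised that of others, such as Slc4a1 (0.51 to 0.55). The related pairs, tested by flipping signs of same-numbered differences, had adjusted exact p-values of 0.469 to 0.625. That test cannot give a p under 0.05 with so few arrays, so its result decides nothing. The count of genes called over all genes was 30 in the main setting and 8 with the block.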

Other observations

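Probe sets of a gene did not always move together. Bcl2l13 differed by 0.16 with its brighter probe set and by -0.10 with the other, both above background. Xk differed by 0.03 with its brighter probe set, and by -0.53 with the other, on which all mutant arrays lay below all wild type arrays (5.35 to 5.83 against 4.89 to 5.22) near background. Tmod3 differed by -0.03 with its brightest probe set and by -0.13, 0.21, -0.26 and 0.22 with the others, the last without overlap and near background. Of the 33 further probe sets of 16 members, 16 were above background.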
